A study of Mus musculus with 4 samples.

Results

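The genes of iron uptake, storage and export were followed across the cells of spleen and bone marrow (BM) of mice with and without a transplanted breast tumor. The 10 genes were taken by name: Tfrc, Tfr2, Slc11a2 and Steap3 for uptake, Slc25a37 for entry into mitochondria, Fth1 and Ftl1 for storage, Slc40a1 for export, Hmox1 for the release of iron from heme, and Aco1, a regulator. All 10 were present among the 32285 genes counted. Single-cell RNA-sequencing (scRNA-seq), in which the messages of a cell share a barcode and a unique molecular identifier (UMI) keeps copies of 1 message from being counted again, was run on 4 groups with 1 library each. These were BM of control (CBM) and of tumor-bearing mice (TBM), and spleen of control (CS) and of tumor-bearing mice (TS). Where 4 values stand in a row, their order is CBM, TBM, CS and TS.

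All mice were of the strain C57BL/6J and 8 to 16 weeks old. The tumor was PyMT-B6, a line derived from mammary tumors of MMTV-PyMT mice, in which a mammary promoter drives a viral oncogene. The number of mice behind each library was not given. In each group the cells were freed with enzymes, depleted with beads of cells carrying lineage markers, sorted through c-Kit+ CD45+ and CD45- gates, and pooled in equal parts, so class sizes describe this pool and not the organ. No gate was set for CD45+ c-Kit- cells, among which macrophages fall.

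Iron reaches developing red cells bound to transferrin, which is taken up by transferrin receptor 1, the product of Tfrc. In the endosome the iron is reduced by Steap3 and leaves through the transporter of Slc11a2, and Slc25a37, also called mitoferrin-1, carries it into mitochondria where heme is made. Iron that is not used is stored in ferritin, a shell of the heavy chain of Fth1 and the light chain of Ftl1, or leaves the cell through ferroportin, the product of Slc40a1. Macrophages that take up old red cells open heme with Hmox1, heme oxygenase-1, and return the iron through ferroportin. Aco1 encodes a cytosolic aconitase that binds RNA, as iron regulatory protein 1, when iron is scarce; it then blocks translation of messages with an iron-responsive element in the 5′ untranslated region (UTR) and protects Tfrc messages that carry such elements in the 3′ UTR.

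These elements link members of the set to each other, and their letters are shown for that reason. The UTRs of all GENCODE vM21 protein-coding transcripts (GRCm38) were searched on the transcript strand for the motif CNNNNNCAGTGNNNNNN, with the last loop base not G and with 5 of 5 stem bases able to pair on the 2 sides of the loop. Only this motif was searched. Fth1, Ftl1 and Slc40a1 held 1 match each in the 5′ UTR, and Tfrc held 4 in the 3′ UTR; the other members held none in these windows, which says only that these letters were not there. Among all genes, 23 of 20580 with a 5′ UTR (0.112%) and 100 of 20962 with a 3′ UTR (0.477%) held a match. Each match is printed 5′ to 3′ with 5 bases on each side, and the capitals mark the 6 loop bases. A match is a description of the sequence, not a measured binding site.

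Tfrc match 1, 3′ UTR, chr16:32631220-32631246, + strand: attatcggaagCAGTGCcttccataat
Tfrc match 2, 3′ UTR, chr16:32631599-32631625, + strand: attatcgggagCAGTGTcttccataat
Tfrc match 3, 3′ UTR, chr16:32631664-32631690, + strand: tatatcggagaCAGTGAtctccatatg
Tfrc match 4, 3′ UTR, chr16:32631711-32631737, + strand: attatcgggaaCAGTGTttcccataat
Fth1, 5′ UTR, chr19:9982733-9982759, + strand: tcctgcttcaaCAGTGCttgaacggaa
Ftl1, 5′ UTR, chr7:45459780-45459806, - strand: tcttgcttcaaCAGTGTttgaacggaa
Slc40a1, 5′ UTR, chr1:45925466-45925492, - strand: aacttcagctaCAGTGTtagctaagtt

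The libraries held 101811035 to 176094297 UMIs, and the barcodes with at least 1000 genes and at most 10% mitochondrial UMIs were kept as cells: 3497, 4340, 3236 and 5188. Their median depth was 13738 and 14386 UMIs in CBM and TBM and 26322 and 26808 in CS and TS, and any pair of libraries shared 2 to 9 barcodes. The 16261 cells fell into 38 clusters, found without the iron genes, and 35 of these could be named from marker genes. Levels are counts per 1000000 UMIs (CPM), summed over the cells of a class in a library, for classes with at least 20 cells; they have exact Poisson 95% intervals, which cover counting error only. Since there was 1 library for each group, no test of the groups was possible, and ratios are given with exact conditional 95% intervals of the same kind. These 3′ counts tag each message once, so levels of different genes were compared without division by length. Doublets were not removed. Because RNA was measured relative to all RNA of a class, less RNA of a gene and more RNA of others cannot be told apart.

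Erythroid cells formed 2 classes. Hemoglobin-rich erythroid-like cells, a single cluster with 109, 150, 65 and 62 cells in CBM, TBM, CS and TS, exceeded the other cells of their library for 10 of 10 markers in every library, and globin took 25.9%, 24.8%, 24.0% and 12.8% of their UMIs. Early erythroid-like cells, led by Car1 and Ermap and nearly free of globin (0.00850% to 0.0623% of UMIs), numbered 96, 50, 1374 and 2885. Their 9 markers were higher than in the other cells in every library but CS, where 8 of 9 were. HSPC-like cells, named for hematopoietic stem and progenitor cells, numbered 812, 925, 148 and 687 and had 9 of 9 markers raised.

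No cluster could be named as macrophages. An unnamed cluster of 33 cells, 28 of them in CBM, had Cybb, Lyz2 and the macrophage marker Csf1r among its leading genes. Its best marker score was that of HSPC-like cells, and its iron gene levels were not computed. Among all kept barcodes, 7 carried at least 10 UMIs of the complement genes C1qa, C1qb and C1qc, at 4, 0, 1 and 2 by library, so the comparisons planned for macrophages could not be made.

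**Figure D1:**
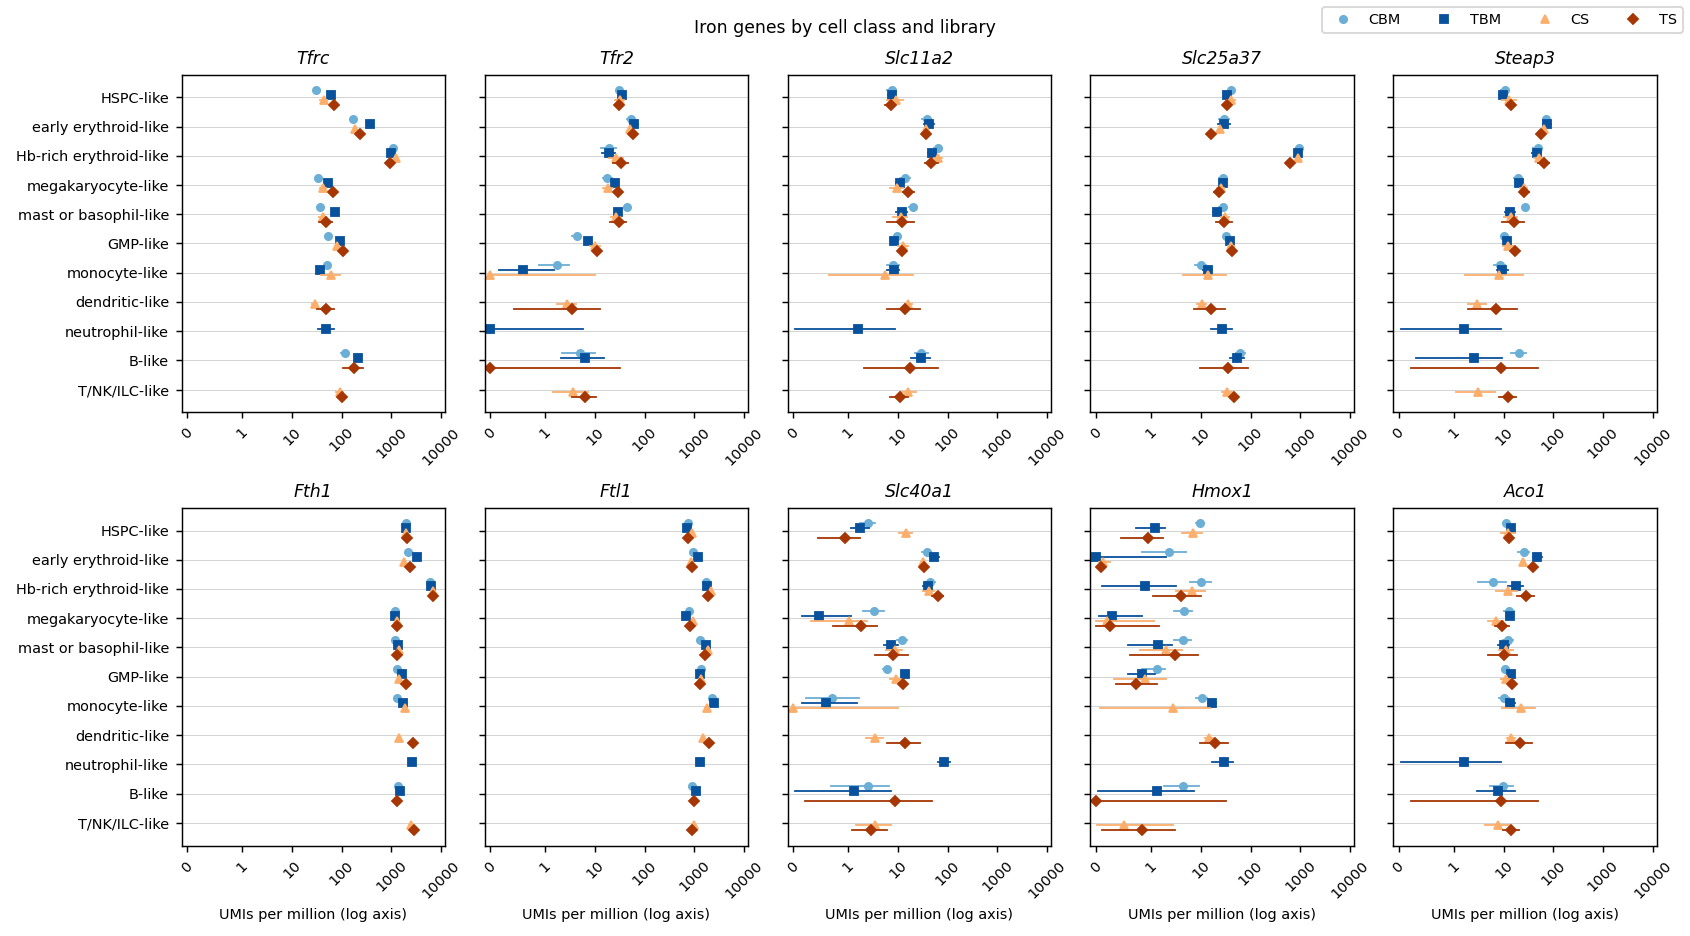
Level of each of the 10 iron genes (CPM, log axis, linear below 1) by cell class, with a point for each library and a bar for its exact Poisson 95% interval. Tfrc, Slc25a37 and Fth1 stood highest in hemoglobin-rich erythroid-like cells of all 4 libraries, at 937 to 1220, 612 to 926 and 5983 to 6945.

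Tfrc, transferrin receptor 1, rose along the erythroid classes in all 4 libraries. In HSPC-like cells it stood at 30.9, 60.1, 43.0 and 71.4 CPM. Early erythroid-like cells held 169, 371, 183 and 232, which was 3.25- to 6.16-fold the HSPC-like level of the same library. In hemoglobin-rich cells it reached 1096, 996, 1220 and 937, a further 2.69- to 6.65-fold. The 3 classes did not overlap in any library. The next classes in order were B-like cells in CBM (114) and TBM (213), and the intervals of the early erythroid-like and B-like cells overlapped only in TS (175 in B-like cells). In free RNA, taken from barcodes with at most 100 UMIs, Tfrc stood at 73.5 to 149 CPM, so the HSPC-like levels lay below those of the free RNA of their own library.

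When each cell was thinned to 2000 UMIs, 86.2%, 77.3%, 90.8% and 83.9% of hemoglobin-rich cells of CBM, TBM, CS and TS had a Tfrc UMI. The shares were 18.8%, 32%, 24.6% and 33.1% in early erythroid-like cells. In HSPC-like cells they were 6.40%, 9.86%, 4.05% and 12.1% and in monocyte-like cells, a class outside the erythroid line, 8.81% in CBM and 5.74% in TBM. The HSPC-like shares thus lay near those of monocyte-like cells. The hemoglobin-rich shares were apart from them, and so was the early erythroid-like share in TBM, while that in CBM overlapped. Other classes outside the erythroid line had higher shares than monocyte-like cells. B-like cells had 19.3% in CBM, 34.7% in TBM and 40% in TS, so the early erythroid-like shares did not stand above theirs. Granulocyte-monocyte progenitor-like cells had 11.2%, 18.2%, 18.5% and 16.1%. Without thinning, every hemoglobin-rich cell (100%) had a Tfrc UMI in each library, against 32.4% to 53.3% of HSPC-like cells.

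Tfr2, transferrin receptor 2, an iron sensor that also joins the erythropoietin receptor, had another order. Its level was 30.02, 34.7, 31.6 and 30.9 CPM in HSPC-like cells. It was 52.4, 61.6, 50.5 and 57.4 in early erythroid-like cells, the named class with the highest level in all 4 libraries, and 18.9, 19.2, 27.0 and 33.5 in hemoglobin-rich cells. The early erythroid-like level was 1.601- to 1.86-fold the HSPC-like level, and the hemoglobin-rich level was 0.312 to 0.584 of the early erythroid-like level, with the interval below equality in all 4 libraries. In CBM mast or basophil-like cells (43.9 CPM) overlapped the early erythroid-like cells. Monocyte-like cells held 1.70 in CBM.

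Steap3, the ferrireductase of the transferrin endosome, went from 9.59 to 14.2 CPM in HSPC-like cells to 71.5, 74.3, 65.8 and 56.3 in early erythroid-like cells, 3.98- to 7.75-fold higher. It was 47.8, 45.5, 51.5 and 64.0 in hemoglobin-rich cells, lower than in early erythroid-like cells in 3 libraries by intervals apart from equality, and overlapping in TS. These falls were not kept when globin UMIs were left out of the totals: the log2 ratios were then -0.15, -0.30 and 0.04 in CBM, TBM and CS, with intervals that reached equality, and 0.38 (0.01 to 0.74) in TS. Slc11a2, the divalent metal transporter DMT1, held 7.13 to 8.98 CPM in HSPC-like cells. It held 37.8, 42.5, 36.3 and 37.3 in early erythroid-like cells of CBM, TBM, CS and TS, and 64.4, 49.6, 64.7 and 47.3 in hemoglobin-rich cells. The 2 erythroid classes were apart for Slc11a2 in CBM and CS and overlapped in TBM and TS. Without globin UMIs hemoglobin-rich cells were higher in all 4 libraries, by 2.29-, 1.55-, 2.34- and 1.45-fold, where Tfrc was 8.75-, 3.57-, 8.76- and 4.63-fold higher.

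Slc25a37 marked the hemoglobin-rich class most sharply. Its level there was 926, 922, 912 and 612 CPM. In early erythroid-like cells it was 29.4, 29.2, 24.0 and 15.8, and in HSPC-like cells 40.7, 33.0, 40.6 and 33.0. The gene was therefore lower in early erythroid-like than in HSPC-like cells in 3 of 4 libraries by intervals apart from equality, and 31.5- to 38.6-fold higher in hemoglobin-rich than in early erythroid-like cells. Free RNA held 53.7, 57.5, 31.0 and 28.3 CPM of Slc25a37, above the early erythroid-like level in each library. It was also above the HSPC-like level in CBM and TBM. The part of free RNA in the lower ratio was not tested. The highest class outside the erythroid cells was B-like in CBM (62.6) and TBM (54.0). After thinning, 74.2% to 84.7% of hemoglobin-rich cells had a UMI of Slc25a37, against 1.04% to 10% of early erythroid-like cells. The share was 1.04% and 2.05% of monocyte-like cells in CBM and TBM, and 11.5%, 12.9% and 8% of B-like cells in CBM, TBM and TS.

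Ferritin was abundant in every class. Fth1 stood at 5983, 6246, 6945 and 6945 CPM in hemoglobin-rich cells of CBM, TBM, CS and TS, at 2153, 3209, 1787 and 2388 in early erythroid-like cells, and at 1954, 1970, 1969 and 2047 in HSPC-like cells. The hemoglobin-rich cells were apart from every other class in each library. Early erythroid-like cells were above HSPC-like cells in CBM, TBM and TS and below them in CS. Ftl1 stood at 1689, 1806, 2180 and 1852 in hemoglobin-rich cells, at 958, 1162, 867 and 914 in early erythroid-like cells, and at 740, 700, 891 and 743 in HSPC-like cells. Its highest class was monocyte-like in CBM (2277) and TBM (2534), while in TS dendritic-like cells (1990) and hemoglobin-rich cells overlapped.

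The balance of the chains differed by class. Fth1 UMIs were 3.19 to 3.75 times the Ftl1 UMIs in hemoglobin-rich cells, 2.06 to 2.76 times in early erythroid-like and 2.21 to 2.81 times in HSPC-like cells. The ratio was 0.755 to 0.910 in mast or basophil-like and 0.577 to 1.08 in monocyte-like cells, so the light chain led in mast or basophil-like cells of all 4 libraries. The 4 hemoglobin-rich values lay above those of all other classes but T, NK or innate lymphoid-like cells (2.47 and 3.27). Reads of Ftl1 can be shared with Ftl1-ps1, a near copy counted as its own gene; it held 17 to 28.4 CPM over whole libraries against 963 to 1254 for Ftl1, and how shared reads were split is unknown.

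**Figure D2:**
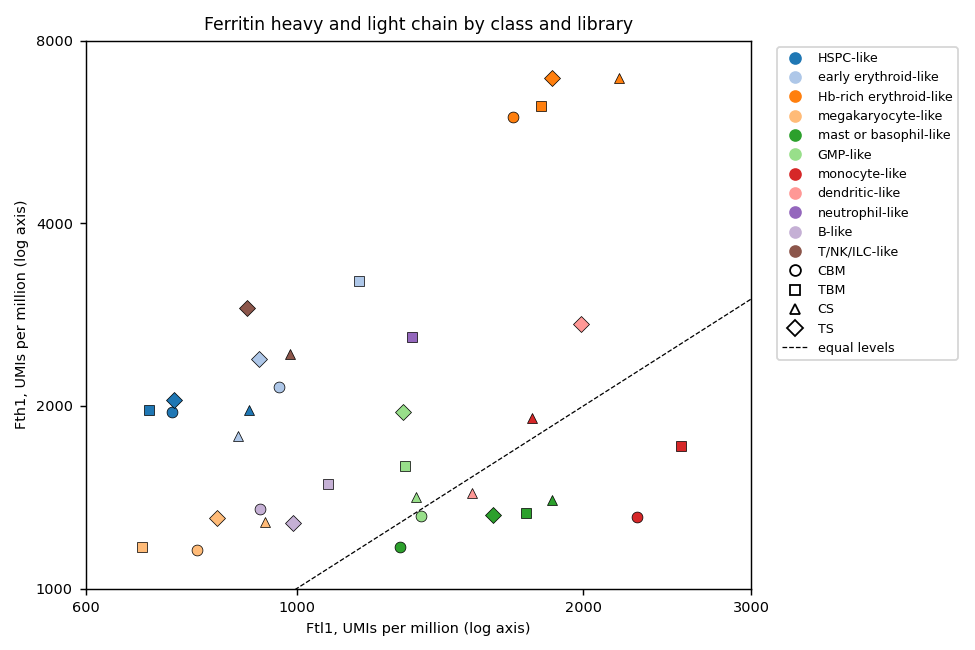
Level of Fth1 against Ftl1 (CPM, log axes) for each class and library, with the class in color, the library by marker shape, and a dashed line where the levels are equal. The 4 hemoglobin-rich points lie apart at the top, at 5983 to 6945 for Fth1, and mast or basophil-like points lie below the line.

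Slc40a1, ferroportin, stood higher in both erythroid classes than in HSPC-like cells of the same library. It held 37.8, 54.1, 31.3 and 33.0 CPM in early erythroid-like cells of CBM, TBM, CS and TS and 43.9, 39.7, 42.2 and 63.0 in hemoglobin-rich cells; the intervals of the 2 classes were apart only in TS. By the ratio, hemoglobin-rich cells were lower in TBM (log2 -0.45, -0.87 to -0.02) and higher in CS (log2 0.43, 0.05 to 0.79) and TS (log2 0.94, 0.56 to 1.29). Without globin UMIs the TBM ratio was log2 -0.04 (-0.46 to 0.39), and hemoglobin-rich cells were higher in the other 3 libraries. Early erythroid-like cells carried 22.5%, 11.4%, 88.4% and 89.7% of all Slc40a1 UMIs of the kept cells. In TBM most of these UMIs (61.9%) came from the 1510 granulocyte-monocyte progenitor-like cells, at a level of 13.7 CPM, and in CBM that class carried 27.7%, at 6.02 CPM. Such shares also follow class size. Of the 59122731, 85030111, 104314280 and 139854825 UMIs of all genes in kept cells, early erythroid-like cells held 2616455, 1884181, 68098341 and 99363420. Granulocyte-monocyte progenitor-like cells held 20253142 in CBM and 40683475 in TBM. HSPC-like cells held 2.47, 1.76, 14.2 and 0.938 CPM. The CS value rested on 1 barcode: of its 46 UMIs, 33 came from a single C1q-carrying barcode in this class, and without that barcode the level was 4.03 (2.15 to 6.90). The 52 neutrophil-like cells of TBM held 85.9 CPM, the highest level of that library, overlapping the early erythroid-like interval. After thinning, 21.2% of them had a UMI, against 0.410% of monocyte-like and 18% of early erythroid-like cells of TBM.

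Hmox1 was near 0 in early erythroid-like cells, with 6, 0, 9 and 9 UMIs in CBM, TBM, CS and TS, and the 0 in TBM allows up to 1.96 CPM. In hemoglobin-rich cells it had 18, 2, 10 and 4 UMIs, and 11 of the 18 in CBM came from 1 barcode that also carried 13 C1q UMIs. Of the 10 in CS, 6 came from 1 barcode. Outside the erythroid line it stood at 10.4 CPM in CBM and 16.8 in TBM in monocyte-like cells, at 28.6 in the neutrophil-like cells of TBM, and at 14.9 in CS and 19.4 in TS in dendritic-like cells. The dendritic-like value of CS rested on 2 barcodes with 72 of its 126 UMIs, and without them, a choice made after their values were seen, it was 6.40 (4.81 to 8.35), near the 6.60 of hemoglobin-rich cells of CS. In HSPC-like cells the level was 9.41, 1.22, 6.81 and 0.938. Without the C1q-carrying barcodes these values were 8.58, 1.22, 1.24 and 0.845, so CBM stayed higher than the other 3 and CS joined them. Free RNA held 3.44, 1.98, 2.37 and 0.832 CPM of Hmox1, and the summed level of the 12 macrophage markers in HSPC-like cells was 56.0, 36.5, 111 and 52.4. The part of these in the CBM value was not tested.

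Aco1, the cytosolic aconitase, was highest in early erythroid-like cells in each of the 4 libraries, at 25.2, 47.2, 24.4 and 39.3 CPM. HSPC-like cells held 11.3, 13.8, 12.1 and 12.8, and hemoglobin-rich cells 6.11, 17.4, 11.9 and 27.6. The fall into the hemoglobin-rich class had its interval below equality in 3 of 4 libraries, and in 2, CBM and TBM, without globin UMIs. Early erythroid-like cells were apart from the next class in CBM and TBM and overlapped it in CS and TS.

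Counted over all 4 libraries, 5 of the 9 members with a mean of at least 20 CPM were at least 2-fold higher in early erythroid-like than in HSPC-like cells in each library, namely Tfrc, Slc11a2, Steap3, Slc40a1 and Aco1, and 0 were as much lower. Among all genes with that mean 3.2% were as much higher and 7.62% as much lower. From early erythroid-like to hemoglobin-rich cells, 2 of 9 were at least 2-fold higher in each library, Tfrc and Slc25a37, and 0 lower, beside 6.89% and 15.7% of all genes. Without globin UMIs 4 of 9 were higher, Fth1 and Ftl1 being added, and 0 lower, beside 10.2% and 9.17% of all genes. Hmox1 was the member below the mean, and from HSPC-like to early erythroid-like cells its interval lay below equality in 3 of 4 libraries. Slc11a2, Steap3, Slc40a1 and Aco1 were under 20 CPM in HSPC-like cells of every library. They reached the mean only through the early erythroid-like cells, where they were high, so the filter favors counts of higher members at that step. The classes were drawn on other genes of the same cells, and these counts are a description.

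Since globin takes UMIs from the other genes, erythroid-like cells of both classes were also ordered by their globin share, with levels in CPM of the UMIs that are not globin. In CBM, Tfrc went from 282 in cells under 10% globin to 1528 at 10% to 30% and 2544 at 30% to 60%. In TBM it went from 486 to 1355, 2087 and, over 60% globin, 4313, whereas in CS the groups of 10% to 30% and 30% to 60% overlapped at 2174 and 2060. Slc25a37 in TBM went from 122 to 1176, 2352 and 6818, a continued rise to the last group. Fth1 in TBM went from 4423 to 8487, 10387 and 10288, which overlap in the last 2 groups, whereas Ftl1 went on rising from 1438 to 2100, 3328 and 4434. Tfr2 in TBM fell from 53.3 to 22.9 and then stood at 7.05 and 26.8, on 143, 12, 2 and 2 UMIs. Over 60% globin only TBM had at least 20 cells (25), and most cells under 10% globin came from the early erythroid-like class.

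**Figure D3:**
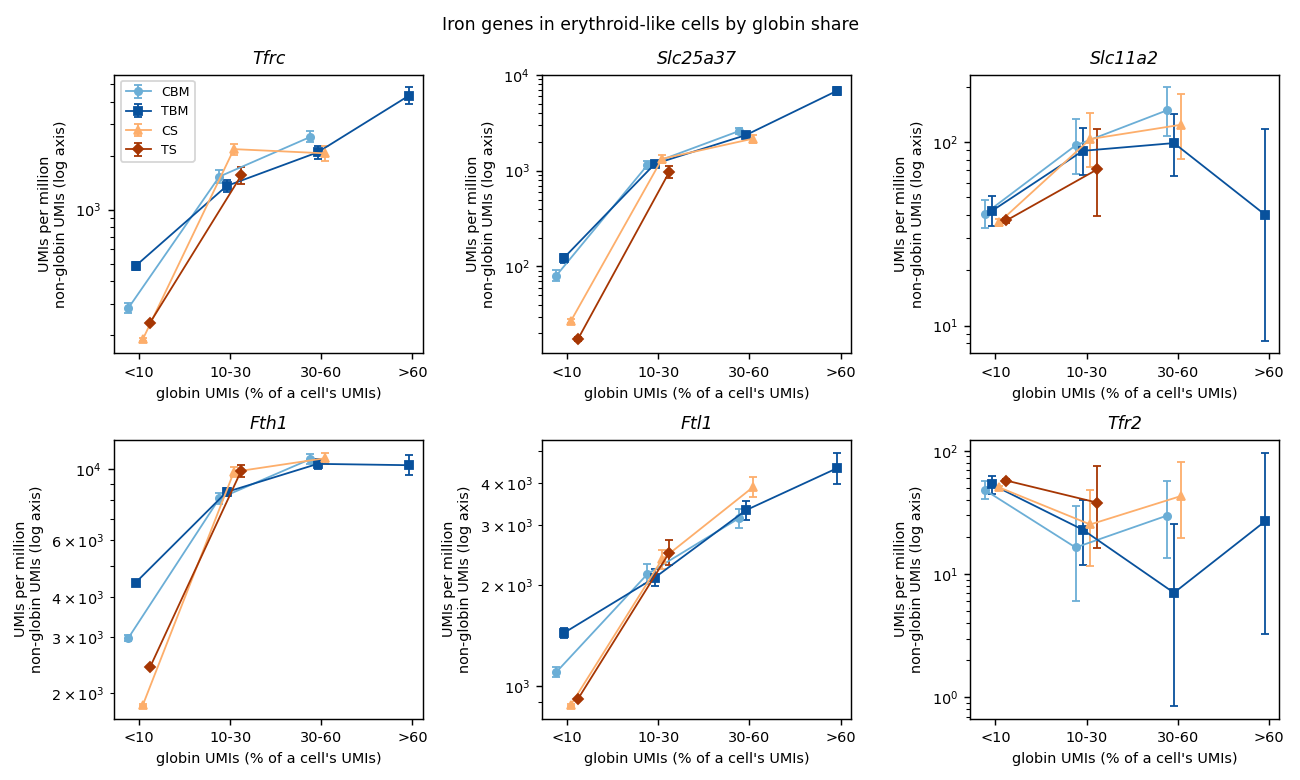
Levels of 6 iron genes in CPM of the UMIs that are not globin (log axis) in erythroid-like cells grouped by the percent of globin UMIs in a cell, with a line for each library and exact Poisson 95% intervals. Tfrc and Slc25a37 rose from group to group in CBM and TBM, to 4313 and 6818 in the last TBM group, while Fth1 was 10387 and 10288 in the last 2.

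Whether the tumor or the tissue moved these genes was asked within each class. In hemoglobin-rich cells, 0 members were at least 2-fold apart in TS over CS, TBM over CBM, CS over CBM and TS over TBM, with 8, 7, 8 and 9 members at a mean of at least 20 CPM; among all genes at that mean the shares were 4.84%, 0.85%, 1.56% and 4.34%. In early erythroid-like cells, 0 of 8, 1 of 9, 0 of 9 and 0 of 9 members were 2-fold apart in the same order, beside 0.82%, 2.94%, 1.46% and 1.86% of all genes. In HSPC-like cells the counts were 0 of 5 in each, beside 1.02%, 0.738%, 0.968% and 0.747%. With so few members these counts are no result about them, and most differences below are under 2-fold. Over the members and over all genes at that mean, the median log2 ratio in hemoglobin-rich cells was -0.12 and 0.18 for TS over CS, and 0.15 and 0.24 for TS over TBM. Without globin UMIs these medians of all genes were -0.02 and 0.02, so values of TS hemoglobin-rich cells are to be read against the shifts. The members' median in early erythroid-like cells was 0.28 in TBM over CBM and 0.13 in TS over CS with the tumor, and between tissues it was -0.40 in TS over TBM and -0.12 in CS over CBM, and all genes lay within 0.04 of equality. This class held different clusters in each library, as given below, and their part in these medians was not tested.

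**Figure D4:**
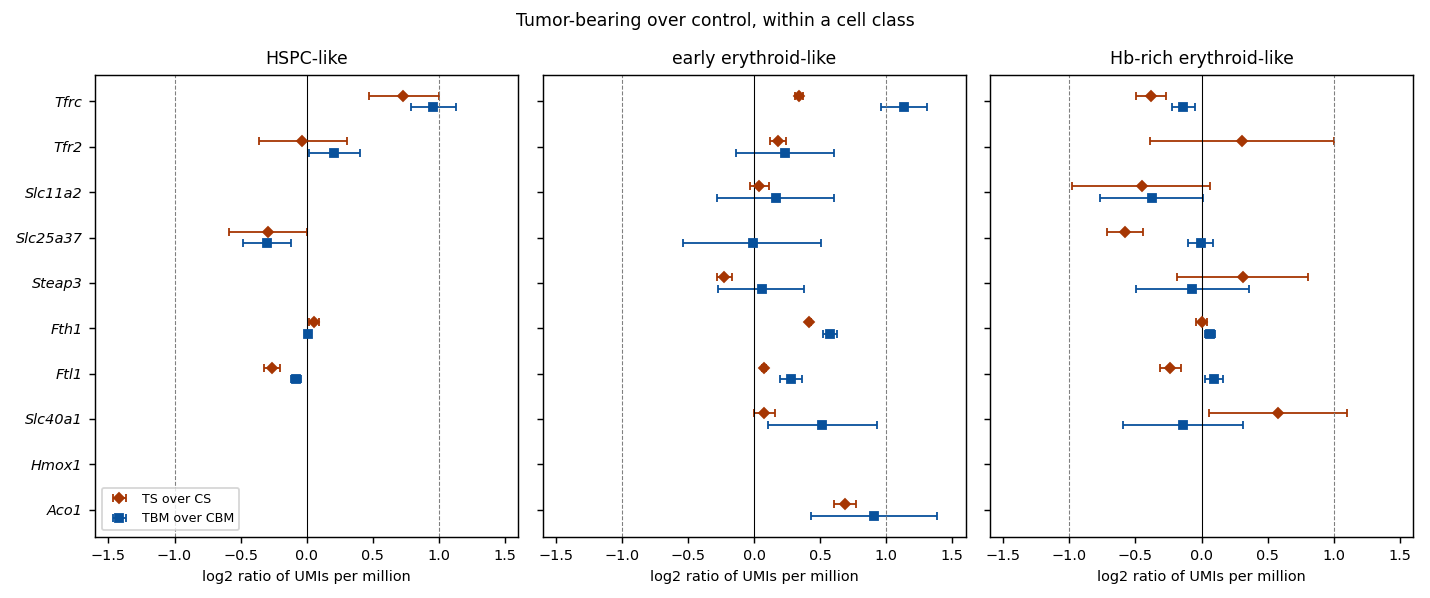
Log2 ratio of tumor-bearing over control for the iron genes with a mean of at least 20 CPM, in spleen (TS over CS) and BM (TBM over CBM), with exact conditional 95% intervals; the solid line is equality and dashed lines mark 2-fold. Tfrc lay above equality in HSPC-like and early erythroid-like cells and below it in hemoglobin-rich cells in both tissues.

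Tfrc was the member 2-fold apart. In early erythroid-like cells it was 2.19-fold higher in TBM than in CBM (log2 1.13, interval 0.96 to 1.31) and 1.27-fold higher in TS than in CS (log2 0.34, 0.31 to 0.37). In HSPC-like cells it was 1.94-fold higher in TBM (log2 0.96, 0.79 to 1.13) and 1.66-fold higher in TS (log2 0.73, 0.47 to 1.00). In hemoglobin-rich cells the ratios lay on the other side, at log2 -0.38 (-0.50 to -0.27) in spleen and -0.14 (-0.23 to -0.05) in BM, and at -0.58 and -0.16 without globin UMIs. In HSPC-like cells the cell cycle gene Mki67 was lower in TBM (224 CPM) than in CBM (239) and higher in TS (381) than in CS (293), and Top2a stood at 337, 303, 368 and 480. The part of the cell cycle in the spleen ratio was not tested.

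Across the 8 classes with enough cells in both BM libraries, the Tfrc interval lay above equality in 6 and below it in 2, the hemoglobin-rich and monocyte-like cells. The ratio of TBM over CBM was 1.98-fold in mast or basophil-like, 1.88-fold in B-like, 1.76-fold in granulocyte-monocyte progenitor-like and 1.59-fold in megakaryocyte-like cells. Some of these classes pooled clusters in unlike parts. Cluster 21 of mast or basophil-like cells held 44 CBM and 230 TBM cells, and cluster 7 of granulocyte-monocyte progenitor-like cells 410 and 234. Free RNA held 73.5 CPM of Tfrc in CBM and 93.5 in TBM. The part of either in these ratios was not tested. In spleen the interval lay above equality in 5 of 8 classes and below it in 1, the hemoglobin-rich cells. Fth1 was above equality in 6 of 8 classes in BM and in 5 of 8 in spleen, and below it in none of either, with its largest ratio in dendritic-like cells of TS over CS at 1.90-fold. Its UMIs were many and its intervals narrow, so small ratios count here, such as HSPC-like TS over CS (log2 0.06, 0.02 to 0.10). The share of all genes with as many classes above equality was not counted for Fth1 or Tfrc, so these counts are a description. Without globin UMIs, however, Fth1 was lower in TS than in CS in hemoglobin-rich cells (log2 -0.20, -0.24 to -0.15).

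Within HSPC-like cells the Tfrc ratio was also given by cluster. In the Hlf-led cluster 0, TBM held 48.2 CPM and CBM 30.5 (log2 0.66, 0.42 to 0.90), and in cluster 4 the levels were 71.4 and 31.7 (log2 1.17, 0.91 to 1.44). In spleen, cluster 4 held 75.7 in TS and 45.4 in CS (log2 0.74, 0.38 to 1.12). The intervals of clusters 0 and 19, with 40 and 275 cells in TS and 58 and 41 in CS, reached equality. Subtracting free RNA at 10% of UMIs took the HSPC-like TBM over CBM ratio of Tfrc past 2-fold, to log2 1.11. In spleen, free RNA held 149 CPM of Tfrc in TS and 89.2 in CS, so it was also higher in TS. The part of free RNA in the HSPC-like spleen ratio was not tested.

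The early erythroid-like class was made of different clusters in each library. Clusters 1 and 2 held 1081 and 1099 cells of TS but 64 and 38 of CS, clusters 8 and 13 held 612 and 490 of CS but 91 and 7 of TS, and cluster 9 held 17, 27, 147 and 530 cells of CBM, TBM, CS and TS. In cluster 9 alone, Tfrc stood at 335, 446, 310 and 321. The ratio of TBM over CBM was then log2 0.41 in place of 1.13, below 2-fold, and that of TS over CS log2 0.05 (-0.01 to 0.11) in place of 0.34. In BM, 46 of the 96 CBM cells lay in cluster 13, where Tfrc was 70.2 CPM, and 4 of the 50 TBM cells did. The part of the cluster mix in the class ratios was not tested.

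Aco1 was higher in TS than in CS in 3 of the 5 clusters with at least 20 cells in each. It was 1.61-fold higher in TS than in CS for the class (log2 0.69, 0.60 to 0.77). In clusters 1, 2 and 9 TS held 37.5, 40.3 and 41.2 CPM, and CS held 25.5, 22.5 and 26.4, with log2 ratios of 0.55 (0.20 to 0.93), 0.84 (0.46 to 1.25) and 0.64 (0.45 to 0.84). In cluster 8 the levels were 18.3 in TS and 25.3 in CS, and in cluster 26, at a median of 3076 and 2919 UMIs a cell, 42.7 and 53.4, with intervals that reached equality. In TBM the class ratio over CBM was log2 0.90 (0.43 to 1.39). It is given for the class only, whose clusters stood in unlike parts in CBM and TBM, as given above. The part of this mix in the Aco1 ratio of BM was not tested. In hemoglobin-rich cells Aco1 was also higher in TS, at 27.6 against 11.9 CPM (log2 1.22, 0.31 to 2.16), on 28 and 18 UMIs, and in TBM, at 17.4 against 6.11 in CBM (log2 1.51, 0.52 to 2.63), on 39 and 11 UMIs; both means were under 20 CPM.

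Cluster 8 held the lowest TS over CS ratios of Tfrc, Slc40a1 and Fth1 among the 5 clusters. Its 91 TS cells held 47.9 CPM of Tfrc against 171 in its 612 CS cells (log2 -1.83, -2.17 to -1.52), and Slc40a1 was 12.4 against 30.8, Steap3 39.0 against 67.4 and Fth1 1203 against 1634. The TS cells of this cluster had a median of 16907 UMIs and the CS cells 58693. The part of depth in these values was not tested. Other clusters also held intervals below equality. Slc40a1 did so in cluster 1 (log2 -0.38, -0.69 to -0.05) and cluster 9 (log2 -0.19, -0.34 to -0.03), where its class ratio was 0.08 (-0.00 to 0.16), and Steap3 in cluster 9 (log2 -0.34, -0.45 to -0.22). Slc11a2 did so in cluster 2 (log2 -0.34, -0.61 to -0.06) and barely in cluster 9 (log2 -0.16, -0.33 to -0.0006). Its class ratio was 0.04 (-0.03 to 0.11). Ftl1 was lower in clusters 1, 2 and 8, at log2 -0.15, -0.21 and -0.32, although its class ratio was above equality (log2 0.08, 0.06 to 0.09). Fth1 was above equality in clusters 1, 2 and 9, with log2 ratios of 0.32, 0.19 and 0.13, and below it in cluster 26 too (log2 -0.34, -0.54 to -0.13).

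**Figure D5:**
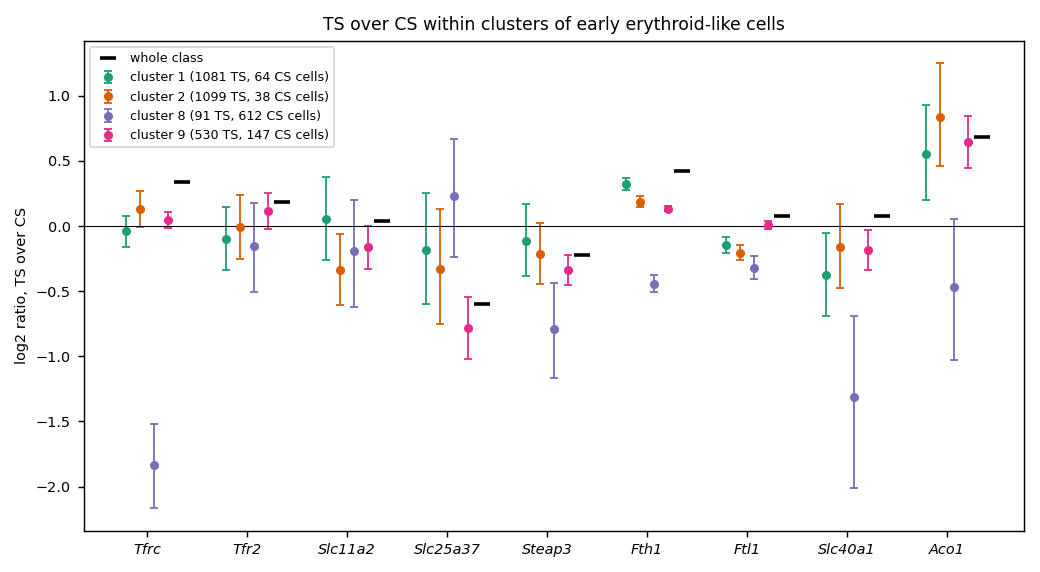
Log2 ratio of TS over CS within 4 clusters of early erythroid-like cells with at least 20 cells in each library (points with exact conditional 95% intervals; the 5th such cluster, of low depth, is left out) beside the ratio of the whole class (black marks). Aco1 lay above 0 in clusters 1, 2 and 9, and Tfrc in cluster 8 lay at -1.83.

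Slc25a37 was lower in TS than in CS in both erythroid classes. In hemoglobin-rich cells it stood at 612 CPM against 912 in CS (log2 -0.58, -0.72 to -0.44), and the globin share was also lower, at 12.8% against 24.0%. Levels in CPM of the UMIs that are not globin were also taken at 10% to 30% globin, in 22 TS and 21 CS cells. Slc25a37 was 972 (843 to 1114) in TS and 1330 (1213 to 1455) in CS there. Tfrc was 1550 against 2174, and Fth1 9887 against 9808. These TS and CS cells had medians of 13012 and 22045 UMIs. The part of the globin share or of depth in the Slc25a37 ratio was not tested. In early erythroid-like cells Slc25a37 was 15.8 in TS and 24.0 in CS (log2 -0.60, -0.70 to -0.50), a mean just under 20 CPM. Both levels lay below the free RNA of their library, at 28.3 in TS and 31.0 in CS. Of the 5 clusters only cluster 9 had its interval below equality, at 14.8 and 25.4 (log2 -0.78, -1.02 to -0.54). Clusters 1, 2 and 26 had log2 ratios of -0.19, -0.33 and -0.70 with intervals that reached equality, and cluster 8 lay on the other side at 0.23 (-0.24 to 0.67). TBM and CBM did not differ beyond counting error in either erythroid class, with log2 ratios of -0.01 (-0.10 to 0.09) and -0.01 (-0.54 to 0.51).

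The tissues were compared within control and within tumor-bearing mice. Ftl1 was higher in CS than in CBM in hemoglobin-rich cells (log2 0.37, 0.30 to 0.44) and in HSPC-like cells (log2 0.27, 0.21 to 0.33) and lower in early erythroid-like cells (log2 -0.14, -0.20 to -0.09). Fth1 in hemoglobin-rich cells was higher in CS than in CBM (log2 0.22, 0.18 to 0.25) and in TS than in TBM (log2 0.15, 0.11 to 0.19). The last turned without globin UMIs, to log2 -0.06 (-0.10 to -0.02), while CS over CBM stayed at 0.18. In early erythroid-like cells all 8 other members at 20 CPM or more lay below TBM in TS along with Slc25a37 (log2 -0.88, -1.27 to -0.47); Slc40a1 was at log2 -0.72 (-1.001 to -0.42) and Tfrc at -0.68 (-0.78 to -0.56). The intervals of Tfr2, Slc11a2 and Aco1 reached equality. The median of all genes in this comparison was log2 -0.02, and the share of all genes below equality was not counted. The TBM class held 50 cells, 27 of them in cluster 9, and the TS class 2885 cells, 530 of them in cluster 9. The part of this mix in the ratios was not tested.

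The few C1q-carrying barcodes were looked at singly, as barcodes chosen after their values had been seen. Summed over the 7, Hmox1 stood at 712 CPM (538 to 924), Slc40a1 at 547 (395 to 736), Fth1 at 3228 and Ftl1 at 1716, with 56 and 43 UMIs for Hmox1 and Slc40a1. Hmox1 was seen in 7 of 7 and Slc40a1 in 5 of 7. The CS barcode alone carried 33 Slc40a1 and 18 Hmox1 among its 7813 UMIs, and 0 of Tfrc. Of the 4 in CBM, 1 had 73.2% globin UMIs, with 13 of Tfrc, 24 of Slc25a37 and 11 of Hmox1. Vcam1, an adhesion molecule of island macrophages, had 105 UMIs in the 7 barcodes, 44 of them in the CS barcode, and Cd5l, a macrophage gene, had 26. The macrophage marker Adgre1 had only 8, and Spic, a regulator in the list of iron genes below, 6.

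A list of 51 other genes of iron and heme-iron handling was followed in the same way. From HSPC-like to early erythroid-like cells, 24 had a mean of at least 20 CPM; 3 were at least 2-fold higher in each library (Abcb10, Glrx5 and Blvrb) and 2 lower (Trf and Ncoa4), beside the 3.2% and 7.62% of all genes. From there to hemoglobin-rich cells, of 23 with that mean, 6 were higher (Ncoa4, Abcb10, Isca1, Glrx5, Blvrb and Abcg2) and 1 lower (Nfe2l2), beside 6.89% and 15.7% of all genes. Without globin UMIs 7 of 24 were higher, Isca2 being added, and 0 lower, beside 10.2% and 9.17%. By group, 3 of the 12 measured genes of mitochondrial iron and iron-sulfur clusters, 2 of 3 for heme breakdown and export, 1 of 3 for storage, 0 of 3 for regulation and 0 of 2 for uptake were higher at this step, counts too small to set against those shares. Abcb10, a mitochondrial transporter that stabilizes mitoferrin-1, reached 364, 371, 364 and 287 CPM in hemoglobin-rich cells of CBM, TBM, CS and TS. Ncoa4, the receptor that takes ferritin to lysosomes, fell to 39.4, 37.2, 33.1 and 21.7 in early erythroid-like cells and stood at 83.3, 95.1, 79.8 and 57.1 in hemoglobin-rich cells.

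Between libraries, 1 of the 24 listed genes at 20 CPM or more was 2-fold apart in early erythroid-like cells of TBM over CBM and the same gene in TS over TBM, beside 2.94% and 1.86% of all genes. This was Slc39a8, a zinc and iron importer, at 37.2 CPM in TBM, 12.6 in CBM and 16.6 in TS. In HSPC-like cells Hp, haptoglobin, which binds free hemoglobin, held 46.2 CPM in TBM and 11.3 in CBM (log2 2.03, 1.77 to 2.29), 1 of 24 listed genes beside 0.738% of all genes. Single genes of so short a list are no result about it. No listed gene was 2-fold apart in the other comparisons of these 3 classes.

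Last, the genes whose level followed each member most closely over the 35 class and library points were found among 6229 genes with a mean of at least 20 CPM. These points share libraries and cell classes, and the correlations of log2(CPM + 10) are a description. Slc25a37 was followed by Slc4a1 (Pearson r = 0.96), Alas2 (0.96) and Trim10 (0.94), and Tfrc by Rhd (0.92) and Cldn13 (0.92). Slc11a2 was followed by Blvrb (0.92), Ammecr1 (0.91) and Smim1 (0.91), Steap3 by Cox6b2 (0.91), Gstm5 (0.91) and Cul4a (0.90), and Fth1 by Trak2 (0.88), Hbb-bt (0.88) and Mtfr1 (0.88). Slc4a1, Rhd and Hbb-bt were among the markers that named the erythroid classes, so their values are not independent of the naming. Tfr2 was followed by Sdsl (0.92), Vamp5 (0.87) and Slc45a4 (0.87). Lower values were found for Ftl1 with Reep5 (0.82), Atp6ap1 (0.75) and Ftl1-ps1 (0.73), Slc40a1 with Asns (0.80), Larp1b (0.79) and Add2 (0.79), Aco1 with Mt2 (0.79), Cenpv (0.79) and Eloc (0.78), and Hmox1 with Tgfbi (0.71), Pirb (0.71) and Chmp2a (0.70). Among the members themselves Tfrc and Slc11a2 were most alike (r = 0.86), and Tfr2 and Hmox1 least (r = -0.40).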

How the data were processed

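The deposited files hold, for every barcode of a library, its UMI count of each gene, unnormalized whole numbers made by the authors with Cell Ranger 4.0 on mm10, per the labels' processing notes. Later steps of the study, among them removal of ambient RNA, are not in these counts. Barcodes with at least 1000 genes and at most 10% mitochondrial UMIs were kept, and clustered by Pearson residuals (theta 100; 19645 genes, without iron, mitochondrial and ribosomal protein genes and Xist), 50 principal components, 20 neighbors and Leiden at resolution 1.2 (leidenalg 0.10.2, igraph 0.11.9, scikit-learn 1.9.0). Clusters were named from marker lists, when at least 3 markers were raised and a marker of the class stood among the 10 leading genes. The members, markers and lists were chosen with earlier results of these data known.

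UMIs were summed by class and library and divided by all UMIs; exact intervals were made with scipy 1.17.1. A gene at 0 was set to 3 counts for a ratio. Genes were compared at a mean of at least 20 CPM, and the bound was 2-fold. The ratio was tested on simulated counts. The 10 members were always named. Of the 51 other iron genes those past the bound were named, at most 4 for a comparison, and the 3 genes most like each member; 1 gene like Tfrc is not reported here. Slc11a2, Slc25a37 and Ftl1 overlap genes on the opposite strand in GENCODE vM21, and the strand setting of the counting was not given in the sources used here. The effects of 8 other settings, and of 5 more chosen after the data were seen, are given beside the results or in the closing section.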

Additional observations from a re-analysis of the deposited data

Results flagged for a closer look

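In hemoglobin-rich erythroid-like cells Ftl1 moved in opposite directions with the tumor in the 2 tissues. It was lower in TS than in CS (log2 -0.24, interval -0.32 to -0.15) and higher in TBM than in CBM (log2 0.10, 0.03 to 0.16), a difference of -0.33 on the log2 scale. Each side had 1 library, so the difference was not tested. The globin share, which lowers the level of every other gene, was 12.8% in TS and 24.0% in CS. Without globin UMIs the spleen ratio lay further below equality, at log2 -0.43 (-0.52 to -0.35), and that of BM was 0.08 (0.01 to 0.14).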

How the results depend on the processing

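With 1 library for each group, no paired analysis was possible because no group has a second library, and leaving out a library leaves no comparison. Depth limits Hmox1 most, with 756 UMIs in all kept cells. The naming of clusters at either resolution gave no macrophages, and the gate on each barcode gave 8, so the 4 comparisons intended for them were not run.

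Of the 12 counts of members at least 2-fold apart, those for hemoglobin-rich TBM over CBM and CS over CBM, early erythroid-like TS over CS and CS over CBM, and HSPC-like TS over TBM kept their value of 0 under all 8 settings tried. For TS over CS in hemoglobin-rich cells the count became 1, by Aco1, at 2000 genes or more, at 5% mitochondrial UMIs or less, at resolution 2, without globin UMIs and without the deepest 5% of cells. The last of these also gave 1 for hemoglobin-rich TS over TBM, by Tfr2, and 2 for early erythroid-like TBM over CBM, by Tfrc and Aco1, as did the mean over cells. At 5% mitochondrial UMIs or less early erythroid-like TS over TBM gave 1, by Slc25a37. HSPC-like TBM over CBM gave 1, by Tfrc, after free RNA was subtracted. The mean over cells gave 1 for HSPC-like TS over CS and for CS over CBM, both by Slc40a1 at 59.1 CPM in CS; without the C1q-carrying barcode named above the mean over the other 147 CS cells was 30.8, of which 4 had a UMI and 1 had 10 among 2267, against 1.09 in TS and 2.96 in CBM.

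Tfrc in early erythroid-like TBM over CBM stayed past 2-fold under the 8 settings. It was log2 0.41 in cluster 9, a setting chosen after the data were seen, with 17 CBM cells, under the bound of 20. Of 21 ratios past 2-fold of hemoglobin-rich cells over the other cells of a library, all stayed so under 7 alternatives, and 20 did with the mean over cells, the exception being Ftl1 in CS. The share of all genes past 2-fold in this comparison was not counted, so this number is no result about the members.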

Other observations

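A single dendritic-like barcode of CS carried 57 Hmox1 UMIs among 16604 and 0 C1q UMIs, and 1 more carried 15 among 24532; the 5 barcodes richest in Hmox1 held 57.8% of the Hmox1 UMIs of the CS cells, against 8.54% in TBM. Both were chosen after their values were seen, and the class level without them is given above.

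A cluster of 842 cells led by Scin, St8sia6 and Slc45a3, with 326 cells in CS, 494 in TS, 20 in TBM and 2 in CBM, stayed unnamed because no marker of early erythroid-like cells stood among its leading genes. In its CS and TS cells Tfrc was at 47.5 and 79.9 CPM, Tfr2 at 48.5 and 47.2, Steap3 at 39.5 and 33.4, and Slc40a1 at 7.04 and 12.2. Free RNA of CS and TS held 89.2 and 149 of Tfrc and 11.45 and 18.85 of Slc40a1, above the cluster in both. It held 42.2 and 54.3 of Tfr2 and 24.1 and 32.2 of Steap3. The part of free RNA in these levels was not tested. Its 20 TBM cells held 80.05 CPM of Tfr2 (47.4 to 126), on 18 UMIs, an interval that overlaps that of early erythroid-like cells of TBM.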
